A study of Homo sapiens with 6 samples.

Results

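The 9 genes described here encode enzymes that act on phospholipids at membranes and outside the cell: the phospholipid phosphatases *PLPP1*, *PLPP2*, *PLPP3*, *PLPP4* and *PLPP5*, the lipins *LPIN1*, *LPIN2* and *LPIN3*, and the endothelial lipase *LIPG*. They are 9 of the 62703 genes in the deposited table and were found in it by gene name. The set was selected on measured values, because *PLPP4* was known to be nearly silent in the edited cells, so the difference of each of the 9 genes between the genotypes is given as a description with no test. RNA was sequenced from PANC-1, a line of human pancreatic cancer cells, to ask which genes depend on a super-enhancer of *DKK1* called DKK1-SE. The 3 DKK1-SE-/- samples carry a homozygous CRISPR/Cas9 deletion of its constituent enhancer e1, and the 3 DKK1-SE+/+ samples are PANC-1 cells with a wild-type genotype. The DKK1-SE-/- cells are 1 clone, so its 3 replicates are samples of 1 clone, and the effect of the deletion and other differences between this clone and the DKK1-SE+/+ cells cannot be told apart. The labels call the samples biological replicates but do not say that they came from separate cultures, so p-values measure only the spread between these samples, which may be technical.

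Phosphatidate is the branch point of glycerolipid synthesis. Lipins inside the cell remove its phosphate to give diacylglycerol, from which triacylglycerol, phosphatidylcholine and phosphatidylethanolamine are made, and lipins also act in the nucleus on transcription. The phospholipid phosphatases are membrane proteins that remove phosphate from phosphatidate, lysophosphatidate, sphingosine 1-phosphate and related lipids, several of them with the catalytic site facing the outside of the cell, where lysophosphatidate and sphingosine 1-phosphate act on receptors. Endothelial lipase is a secreted phospholipase of the lipoprotein lipase family that acts on high-density lipoprotein.

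Expected counts summed to 21822314, 16475810 and 18803154 over the genes of DKK1-SE+/+ replicates 1, 2 and 3, and to 17359835, 20098086 and 17804764 over those of DKK1-SE-/- replicates 1, 2 and 3. *DKK1* itself, the gene that the edited enhancer is named for, had a TPM (a level per transcript length, scaled to the same sum in each library) of 229, 246 and 199 in the DKK1-SE+/+ replicates and of 66.8, 79.8 and 82.7 in the DKK1-SE-/- replicates. Each DKK1-SE-/- sample lay below each DKK1-SE+/+ sample for *DKK1*. Its log2 fold change was -1.45 (standard error 0.112), with a Benjamini-Hochberg adjusted p of 6.16e-06 in the quasi-likelihood test of edgeR. Log2 fold changes are DKK1-SE-/- minus DKK1-SE+/+ throughout, and come from the same fit to the counts of 15179 tested genes.

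The cells had the keratins of ductal epithelium. The 8 epithelial markers summed to a TPM of 1910, 1960 and 2010 in the DKK1-SE+/+ replicates and of 3220, 3160 and 2730 in the DKK1-SE-/- replicates, led by *KRT8*, and none of them was listed at 0. By the same test *KRT8*, *KRT18*, *KRT19* and *MUC1* were higher and *SOX9* and *EPCAM* were lower in DKK1-SE-/- cells. The call of *SOX9* was lost without DKK1-SE+/+ replicate 2 or 3 or DKK1-SE-/- replicate 2 and with replicate number as a block (adjusted p up to 0.105 by edgeR), and that of *EPCAM* in 10 of 15 alternatives, among them those without any 1 of the DKK1-SE+/+ replicates or DKK1-SE-/- replicate 1 or 2 (up to 0.123 in these edgeR fits and 0.141 over all). Of the 6 endothelial markers, 5 stayed under a TPM of 1 in every sample. The endothelial sum was 2.62, 2.57 and 2.43 in DKK1-SE+/+ cells and 0.58, 0.68 and 0.62 in DKK1-SE-/- cells. *KDR* was its most abundant gene, at 2.51, 2.47 and 2.08 and then 0.39, 0.33 and 0.55. The 4 blood cell markers summed to 43.8, 41.1 and 47.0 and to 68.9, 66.3 and 68.6, led by *CD68*, with *PTPRC* and *CD163* under a TPM of 1 throughout and *CD14* at 0.47 ± 0.173 and then 1.36 ± 0.251 (SD, n = 3). The 6 fibroblast markers summed to 92.8, 104 and 104 and to 12.8, 9.77 and 16.8. That sum was almost entirely *COL1A1*, and the other 5, *DCN*, *LUM* and *PDGFRA* among them, were under 1. The 4 adipocyte markers reached at most 0.37 in sum, led by *PLIN1*, with *ADIPOQ* and *LEP* at 0. The 4 acinar markers reached at most 0.2 in sum, led by *CPA1*, with *PNLIP* and *CELA3A* at 0. The part of *KDR*, *CD68*, *CD14* and *COL1A1*, which moved with the genotype, in the results below was not tested.

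Over all tested genes, 3013 were higher in DKK1-SE-/- cells and 2959 were lower at an adjusted p under 0.05, which is 19.8% and 19.5% of them. The study's rule for differentially expressed genes (DEG rule) is an unadjusted p under 0.05 and, as its methods put it, a fold change of 1.2 or more in size. With that limit on the log2 scale, as used below, 753 (4.96%) were higher and 561 (3.7%) were lower. With the limit on the linear fold change, a reading added after the data were seen, they were 3696 (24.3%) and 3531 (23.3%). All 9 members passed the filter on low counts, and *PLPP4* passed it only through the DKK1-SE+/+ samples. TPM of the groups did not overlap for 6 of the 9 members, against 44.2% of tested genes, and nothing is read from this count because the members were chosen on the same contrast.

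*PLPP4* (ENSG00000203805) spans bases 120457227 to 120592065 of the plus strand of chromosome 10 in GENCODE version 44, 68.1 Mb from *DKK1* on the same chromosome. The deposited table gave it 202, 155 and 162 counts in the DKK1-SE+/+ replicates and 2, 1 and 1 counts in the DKK1-SE-/- replicates. The corresponding TPM was 9.39, 10.2 and 6.37 against 0.15, 0.06 and 0.08. Every DKK1-SE+/+ sample was well above every DKK1-SE-/- sample, and the groups did not come near each other. The mean was 8.65 ± 2.01 in DKK1-SE+/+ cells and 0.0967 ± 0.0473 in DKK1-SE-/- cells (SD, n = 3). Summed over the samples of a group and divided by the total counts, 519 DKK1-SE+/+ counts against 4 DKK1-SE-/- counts make a ratio of 126, with an exact 95% interval of 48.8 to 463 that covers counting error only. The low TPM of DKK1-SE+/+ replicate 3 was not a low count. Its count per TPM corresponded to a transcript length of 2373 bases, against 1675 and 1612 bases in replicates 1 and 2, so the deposited estimate gave that sample a longer mix of transcripts.

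The promoter sequences of *PLPP4* and *LIPG*, the members with the largest differences, are shown with the motif matches found in them. RefSeq promoter windows were given for 6 of the 9 members. The windows below hold the 250 bases before a RefSeq start on GRCh38.p14, plus strand, and capitals mark matches. Both strands were searched for TGANTCA (AP-1), CACGTG (E-box), GGGCGG (Sp1), CCAAT and TATAAA, a set chosen after the values were seen. Of 2 *PLPP4* windows, the one shown is chr10:120456704-120456953, which ends 274 bases before the GENCODE gene start. The other, chr10:120456977-120457226, ends 1 base before that start. The *LIPG* window is chr18:49561807-49562056, and 84 of its bases lie in an exon of another GENCODE transcript of *LIPG*. This window lies inside the annotated gene, which starts at base 49560699 in GENCODE version 44.
PLPP4: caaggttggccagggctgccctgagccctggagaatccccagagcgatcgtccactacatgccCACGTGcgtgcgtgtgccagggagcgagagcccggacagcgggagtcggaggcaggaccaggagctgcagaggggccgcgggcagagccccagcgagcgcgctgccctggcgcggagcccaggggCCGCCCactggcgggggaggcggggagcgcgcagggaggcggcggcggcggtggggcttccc
LIPG: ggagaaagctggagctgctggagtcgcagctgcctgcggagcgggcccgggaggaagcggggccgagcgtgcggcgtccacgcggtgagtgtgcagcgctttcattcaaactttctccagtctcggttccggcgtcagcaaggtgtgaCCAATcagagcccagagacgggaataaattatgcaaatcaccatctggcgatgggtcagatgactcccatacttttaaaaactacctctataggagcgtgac
The *PLPP4* window shown held 1 CACGTG match and 1 GGGCGG match, which 6.34% and 42.6% of the 35116 windows of this length held. The *LIPG* window held 1 CCAAT match, which 32.0% of the windows held, and neither window held TGANTCA (6.57% of windows) or TATAAA (10.7%). The other *PLPP4* window held 3 GGGCGG matches and none of the other 4 motifs, and 81.2% of it was G and C. G and C made up 75.6% of the *PLPP4* window shown and 57.2% of the *LIPG* window, against a median of 58.0% over the windows. A match is a run of letters and not a measured binding site.

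*PLPP5* (ENSG00000147535), a phospholipid phosphatase of broad lipid specificity on chromosome 8, was the other phosphatase with lower levels. Its TPM was 21.7, 15.6 and 15.5 in the DKK1-SE+/+ replicates and 7.56, 8.87 and 8.02 in the DKK1-SE-/- replicates. The groups did not overlap, and DKK1-SE+/+ replicate 1 was the highest sample. The mean was 17.6 ± 3.57 and then 8.15 ± 0.665, a log2 fold change of -0.98 (standard error 0.156). *PLPP5* lies entirely within the span of *DDHD2*, a phospholipase on the opposite strand, with 6114 shared bases. *DDHD2* had 955, 760 and 782 counts in DKK1-SE+/+ cells and 184, 306 and 320 in DKK1-SE-/- cells. The library kit marks strand, but whether the counting used it is not given in the sources used here, so reads of the 2 genes cannot be told apart on that ground.

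*PLPP3* (ENSG00000162407), whose product degrades lysophosphatidate at the cell surface, was the phosphatase that was higher in DKK1-SE-/- cells by the largest factor. Its TPM was 2.80, 2.0 and 2.74 in DKK1-SE+/+ cells and 4.16, 4.90 and 5.62 in DKK1-SE-/- cells. Every DKK1-SE-/- sample lay above every DKK1-SE+/+ sample. The mean was 2.51 ± 0.446 and then 4.89 ± 0.73, a log2 fold change of 1.06 (standard error 0.171). *PLPP1* (ENSG00000067113), the widely expressed founding member of the family, had a TPM of 18.0, 18.6 and 18.4 in DKK1-SE+/+ cells and of 19.3, 22.6 and 25.2 in DKK1-SE-/- cells. These groups did not overlap, but the closest samples were 18.6 and 19.3 and the edited samples varied more. Its log2 fold change was 0.51 (standard error 0.12), or 0.26 and 0.28 with limma on TPM. *PLPP1* shares 726 bases with *MTREX* on the opposite strand, whose counts moved the other way, from 1946, 1518 and 1564 to 610, 1099 and 1171. *PLPP2* (ENSG00000141934) was the most abundant of the 9 members, at 45.1, 35.9 and 41.7 in DKK1-SE+/+ cells and 45.7, 49.2 and 41.4 in DKK1-SE-/- cells. Its groups overlapped, with a log2 fold change of 0.34 (standard error 0.139), or 0.15 and 0.16 with limma on TPM and 0.22 with a GC-content offset.

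**Figure D1:**
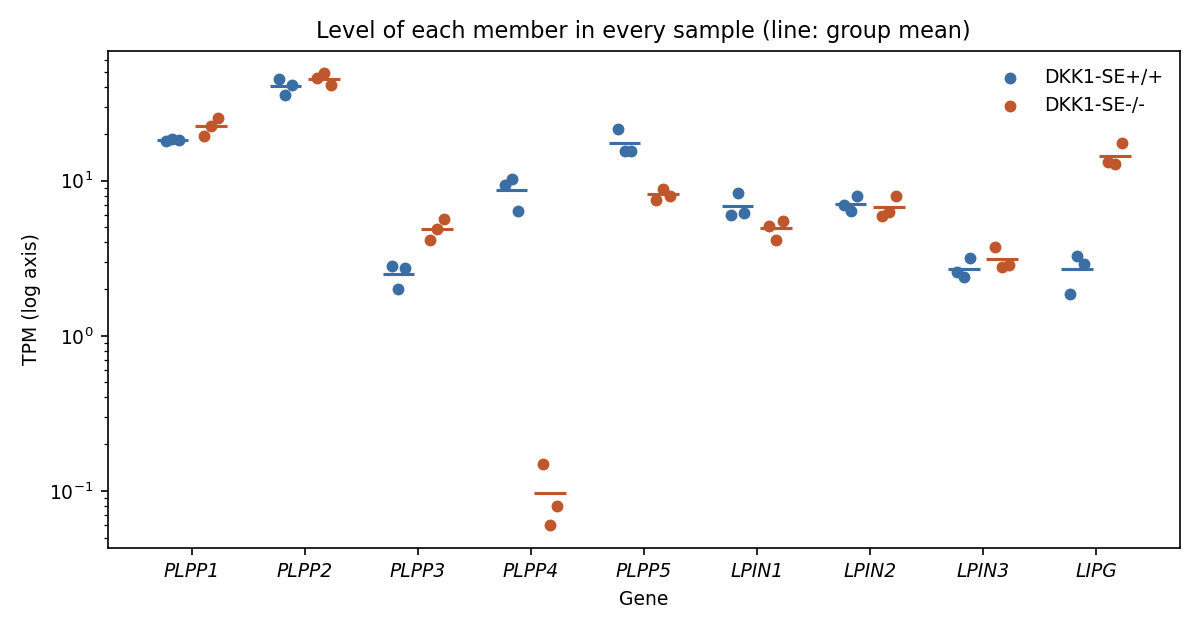
TPM of each of the 9 members on a log axis, 1 point per sample and a line at each group mean, for 3 DKK1-SE+/+ and 3 DKK1-SE-/- samples. *PLPP4* averages 8.65 and 0.0967 and *LIPG* averages 2.68 and 14.5 in the groups, while the groups of *PLPP2*, *LPIN2* and *LPIN3* overlap.

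The 5 phosphatases together had nearly the same summed TPM in both genotypes. The sum was 97.0, 82.2 and 84.6 in DKK1-SE+/+ cells and 76.9, 85.6 and 80.4 in DKK1-SE-/- cells. The groups overlapped, with means of 88.0 ± 7.94 and 80.9 ± 4.41 (SD, n = 3). What differed was the makeup of the sum. *PLPP4* made up 9.68%, 12.4% and 7.53% of it in DKK1-SE+/+ cells and 0.195%, 0.0701% and 0.0996% in DKK1-SE-/- cells. The share of *PLPP5* was 22.3%, 18.9% and 18.3% and then 9.84%, 10.4% and 9.98%. *PLPP2*, *PLPP1* and *PLPP3* filled the rest, with mean shares that went from 46.5% to 56.2%, from 21.0% to 27.6% and from 2.85% to 6.04%. By expected counts over the library total (CPM), which are not divided by length, the share of *PLPP3* went from 7.36% to 14.4%. None of the 5 shares overlapped between the groups, though the TPM of *PLPP2* itself did. Nothing is read from this count, because the members were chosen on the same contrast. Shares of 1 sum are also bound to move against each other.

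**Figure D2:**
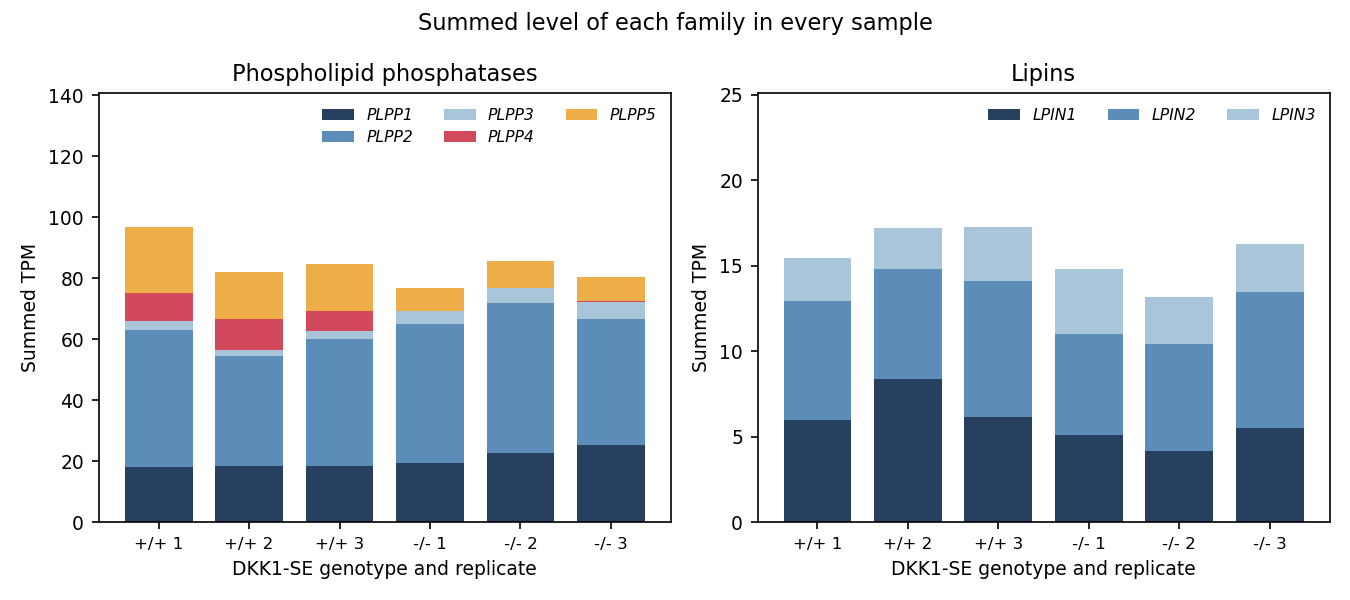
Summed TPM of the 5 phospholipid phosphatases (left) and the 3 lipins (right) in each of the 6 samples, with each bar divided by gene. The phosphatase bars reach between 76.9 and 97.0 in all samples, and the *PLPP4* segment is visible only in the DKK1-SE+/+ bars.

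*LPIN1* (ENSG00000134324), a phosphatidate phosphatase that also coactivates transcription of fatty acid oxidation genes, had a TPM of 6.02, 8.36 and 6.16 in DKK1-SE+/+ cells and of 5.12, 4.15 and 5.50 in DKK1-SE-/- cells. The groups did not overlap, though samples of 6.02 and 5.50 were close. The mean was 6.85 ± 1.31 and then 4.92 ± 0.696, and the log2 fold change from counts was -0.25 (standard error 0.135), or -0.16 without DKK1-SE+/+ replicate 2 and -0.40 and -0.46 with limma on TPM. *LPIN2* (ENSG00000101577) had a TPM of 6.95, 6.42 and 7.98 and then of 5.91, 6.30 and 7.97, so its groups overlapped almost fully. Its log2 fold change of 0.08 (standard error 0.127) was at or below 0 in 6 of 15 alternative analyses and is given no direction. *LPIN2* overlaps *EMILIN2* on the opposite strand by 30708 bases. *LPIN3* (ENSG00000132793) was the least abundant lipin in every sample, at 2.57, 2.40 and 3.16 and then 3.75, 2.76 and 2.84. Its groups overlapped as well, with a log2 fold change of 0.44 (standard error 0.171), or 0.29 without DKK1-SE-/- replicate 1, 0.15 and 0.19 with limma on TPM and 0.20 with a GC-content offset. *LPIN3* shares 621 bases with *EMILIN3* on the opposite strand. *EMILIN3* had 2, 0 and 0 counts in DKK1-SE+/+ cells and 14, 12 and 8 in DKK1-SE-/- cells. The summed TPM of the 3 lipins was 16.7 ± 0.983 in DKK1-SE+/+ cells and 14.8 ± 1.55 in DKK1-SE-/- cells, and *LPIN2* made up 42.7% and 45.5% of it on average.

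*LIPG* (ENSG00000101670), on chromosome 18, was the member most elevated in DKK1-SE-/- cells. Its TPM was 1.86, 3.29 and 2.90 in the DKK1-SE+/+ replicates and 13.3, 12.7 and 17.5 in the DKK1-SE-/- replicates. All 3 DKK1-SE-/- samples lay several times above all DKK1-SE+/+ samples. In counts, the values were 103, 93 and 111 against 494, 541 and 573. The counts varied less within DKK1-SE+/+ cells than TPM did, and the transcript length implied by the count per TPM was 4311, 2996 and 3571 bases in those replicates. The mean TPM was 2.68 ± 0.739 and then 14.5 ± 2.59, a log2 fold change of 2.50 (standard error 0.148). In the order of mean TPM, *LIPG* stood at about the level of *LPIN3* and *PLPP3* in DKK1-SE+/+ cells, whose values overlap its own, and between *PLPP5* and *PLPP1* in DKK1-SE-/- cells.

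The genes whose log2(TPM + 1) followed *PLPP4* most closely over the 6 samples were *CLPTM1L* (Pearson's r = 0.9986), *IGSF3* (0.9980) and *SERPINA3* (0.9973), among 13491 genes compared. *IGSF3* had a TPM of 7.64, 8.33 and 7.12 and then of 1.76, 1.71 and 1.69. For *LIPG* they were ENSG00000290414 (0.9985), *SLC35E2A* (0.9976) and *CORO7* (0.9964). *SLC35E2A* had a TPM of 4.92, 5.71 and 5.28 and then of 8.81, 8.96 and 10.1. The 6 samples form 2 genotype groups, so a gene whose groups lie well apart in the same direction can have a high r from that alone, and r was over 0.9 for 1580 genes with *PLPP4* and for 1007 with *LIPG*.

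Of the 124 other genes of the pathway in 6 lists, 93 were tested, 24 were higher and 19 were lower in DKK1-SE-/- cells at an adjusted p under 0.05. That is 25.8% and 20.4% of them, against 19.8% and 19.5% of all tested genes, and nothing particular to the lists is read from it. Their median log2 fold change was 0.10, against 0.03 for all tested genes.

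The lysophosphatidate and sphingosine 1-phosphate genes, are receptors and enzymes of the lipids that phospholipid phosphatases degrade. Of 13 tested genes of 20, 6 (46.2%) were higher and 3 (23.1%) were lower, against 19.8% and 19.5% of all tested genes. With limma on TPM, 2 were higher. The median log2 fold change of the list was 0.27. *S1PR3*, a receptor of sphingosine 1-phosphate, went up from 1.40 ± 0.25 to 12.8 ± 1.71 TPM (SD, n = 3), by 3.30 on the log2 scale (standard error 0.15, adjusted p = 1.7e-07 by edgeR). *LPAR2*, a receptor of lysophosphatidate, rose from 2.69 ± 0.236 to 8.82 ± 3.34, a log2 fold change of 1.42 (adjusted p = 0.000983 by edgeR). *S1PR1* rose from 0.173 ± 0.0723 to 0.727 ± 0.247, a log2 fold change of 2.07 from low counts, and *S1PR2*, outside the naming rule and named after its values were seen, by 0.91 on the log2 scale. The other tested receptors, *LPAR1* (0.04) and *S1PR5* (-0.20), also outside the rule, did not pass the test. *SPNS2*, which exports sphingosine 1-phosphate, fell from 31.1 ± 0.88 to 19.6 ± 2.59 (log2 fold change -0.54, or -0.90 with the GC-content offset). *ENPP2*, which makes lysophosphatidate outside the cell, averaged 0 TPM in DKK1-SE+/+ cells and 0.0267 TPM in DKK1-SE-/- cells. *LIPH*, a phospholipase of the list that also makes lysophosphatidate, was expressed, at 22.3 ± 0.76 and then 19.6 ± 3.66 TPM. It did not pass the test (adjusted p = 0.981 by edgeR). *SPHK1*, a kinase that makes sphingosine 1-phosphate, had the highest mean TPM of the list over the 6 samples, though *SPNS2* was above it in DKK1-SE+/+ cells. It rose from 26.3 ± 2.5 to 31.7 ± 2.8 (log2 fold change 0.47, adjusted p = 0.0157 by edgeR). The lyase *SGPL1* and the phosphatase *SGPP1*, which break it down, each had a log2 fold change of -0.32, while *SGPP2*, another such phosphatase, was higher (1.37, with its limits below). The calls of *SPHK1*, *SGPL1* and *SGPP1* were lost when DKK1-SE+/+ replicate 1, DKK1-SE+/+ replicate 2 or DKK1-SE-/- replicate 2 was left out, and those of *SGPL1* and *SGPP1* also without DKK1-SE+/+ replicate 3, with adjusted p of up to 0.0921, 0.154 and 0.147 in these edgeR fits. That of *SPHK1* was also lost with limma on TPM and both GC-content offsets (log2 fold change down to 0.10, adjusted p up to 0.456), that of *SGPL1* with the replicate block (its log2 fold change was as far from 0 as -0.64 with limma on TPM), and that of *SGPP1* in 11 of 15 alternatives in all, DESeq2, limma and both offsets among them (log2 fold change as near 0 as -0.03, adjusted p up to 0.88). The calls of *S1PR1* and *S1PR2* were lost with limma on TPM (log2 fold change down to 0.55 and 0.46).

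The genes of the lipase list held large rises in 3 genes, of which *GPIHBP1* stayed under a TPM of 1 in every sample. Of 15 tested genes of 26, 3 (20.0%) were higher and 4 (26.7%) were lower, against 19.8% and 19.5% of all tested genes. The median log2 fold change of the list was -0.10. *MGLL*, the monoacylglycerol lipase, rose from a TPM of 0.72 ± 0.362 to 7.0 ± 0.722, a log2 fold change of 3.55 (standard error 0.302, adjusted p = 1.14e-05 by edgeR). *LMF1*, needed in the endoplasmic reticulum for the maturation of lipoprotein lipase and endothelial lipase, rose from 4.73 ± 0.315 to 10.9 ± 1.88 (log2 fold change 1.71, adjusted p = 0.000315 by edgeR). *GPIHBP1*, which anchors lipoprotein lipase on capillaries, rose from 0.21 ± 0.139 to 0.85 ± 0.165 (log2 fold change 2.09, standard error 0.468). This rise came from low counts, 13, 3 and 4 in DKK1-SE+/+ cells and 27, 23 and 27 in DKK1-SE-/- cells. With limma on log2(TPM + 1) the log2 fold changes of *MGLL*, *LMF1* and *GPIHBP1* were 2.24, 1.05 and 0.61. Among the proteases that can cut endothelial lipase, *PCSK6* fell from 13.1 ± 1.04 to 6.89 ± 0.932 (log2 fold change -0.84, adjusted p = 0.00115 by edgeR) and *FURIN* fell by 0.44 on the log2 scale. *ABHD5*, a coactivator of adipose triglyceride lipase, fell by 0.68. *ANGPTL4*, an inhibitor of lipoprotein lipase and the most abundant gene of the list, had a TPM of 264 ± 27 and then 179 ± 18.2, a log2 fold change of -0.36. Its call was lost with the replicate block and without any 1 of the DKK1-SE+/+ replicates or DKK1-SE-/- replicate 2 (adjusted p up to 0.162 by edgeR), and that of *FURIN* without DKK1-SE+/+ replicate 2, DKK1-SE+/+ replicate 3 or DKK1-SE-/- replicate 2 (up to 0.072 by edgeR). With the GC-content offset the log2 fold change was -0.70 for *ANGPTL4* and -0.76 for *FURIN* (adjusted p = 1.92e-05 and 2.29e-05 by edgeR). The call of *ABHD5* was lost with limma on TPM and with both GC-content offsets (log2 fold change as near 0 as -0.21, adjusted p up to 0.164). The nearest relatives of *LIPG*, *LPL* and *LIPC*, averaged 0 TPM in DKK1-SE+/+ cells and 0.0733 and 0 TPM in DKK1-SE-/- cells.

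**Figure D3:**
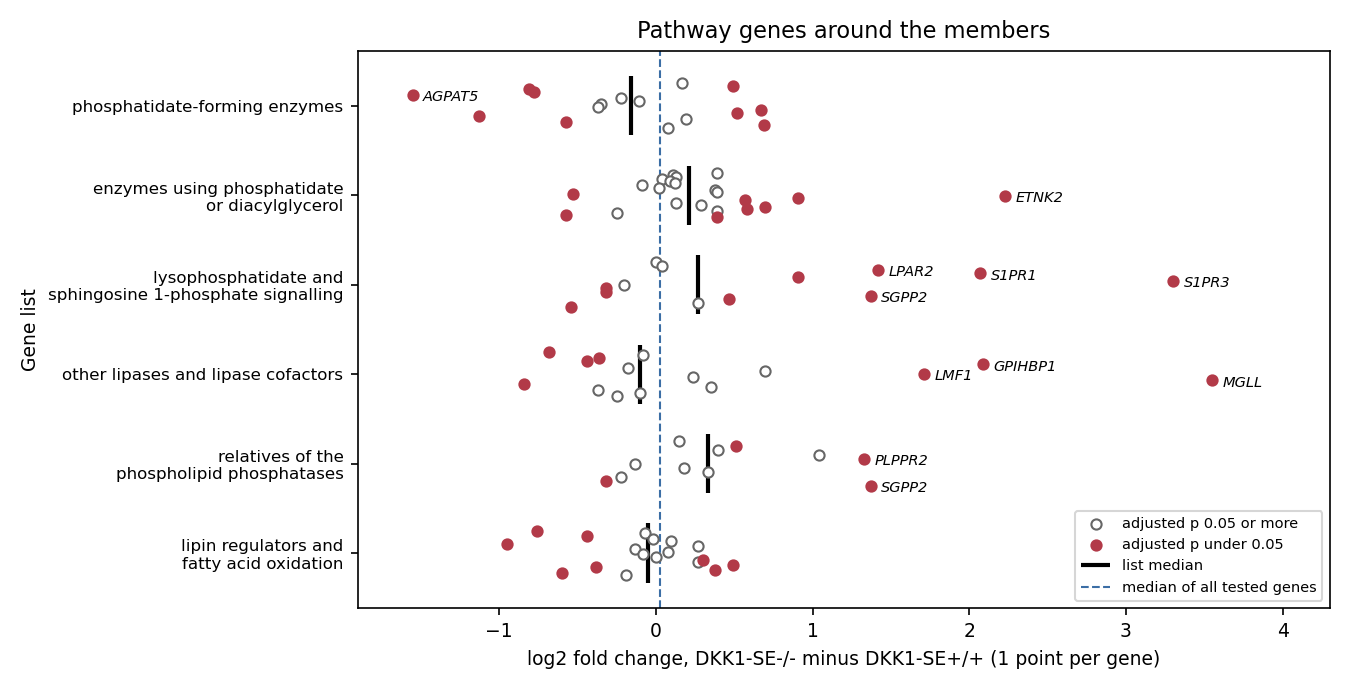
Log2 fold change of each tested gene in the 6 pathway lists, 1 point per gene, filled where the adjusted p was under 0.05, with a bar at each list's median and a dashed line at the median of all tested genes (0.03). *MGLL* (3.55) and *S1PR3* (3.30) lie farthest to the right and *AGPAT5* (-1.55) farthest to the left.

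The enzymes that form phosphatidate moved in both directions. Of 16 tested genes of 21, 4 (25.0%) were higher and 5 (31.2%) were lower, against 19.8% and 19.5% of all tested genes. The median log2 fold change of the list was -0.16. *AGPAT5* fell from a TPM of 25.4 ± 4.97 to 8.79 ± 2.34 (log2 fold change -1.55, adjusted p = 3.16e-05 by edgeR), and *GPAM*, which catalyses the first step of glycerolipid synthesis at mitochondria, from 4.56 ± 0.483 to 1.91 ± 0.555 (log2 fold change -1.13). *AGPAT3* fell by 0.81 on the log2 scale, and *GPAT4* and *AGPAT4*, outside the naming rule and named after their values were seen, by 0.57 and 0.78. Of the 4 genes that were higher, *PLD1* is a phospholipase D, *DGKZ* and *DGKQ* are diacylglycerol kinases and *AGPAT2*, also outside the rule, is an acyltransferase. *DGKZ* rose from 59.2 ± 3.55 to 78.8 ± 9.84, *PLD1* by 0.69 and *DGKQ* by 0.67 on the log2 scale. The calls of *DGKZ* and *DGKQ* were lost without DKK1-SE+/+ replicate 1 (adjusted p = 0.0655 and 0.0705 by edgeR), with limma on TPM and with the GC-content offset and block together, and that of *DGKQ* also with the offset alone, with adjusted p of up to 0.104 and 0.293 over all alternatives and log2 fold changes down to 0.22 and 0.28 with the offset. Those of *PLD1*, *AGPAT3* and *AGPAT4* were lost with limma on TPM (up to 0.516, 0.0734 and 0.0522), where the log2 fold change of *PLD1* was down to 0.19 and that of *AGPAT3* as near 0 as -0.53. That of *AGPAT2*, at an adjusted p of 0.0499 by edgeR, held in 3 of 15 alternatives (log2 fold change down to 0.06, adjusted p up to 0.673) and was lost without any 1 sample but DKK1-SE-/- replicate 3 (up to 0.178).

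The list counted here and below as enzymes that use phosphatidate or diacylglycerol also holds enzymes of other steps of phospholipid synthesis. *PCYT1A*, *ETNK2* and *PTDSS1* are among these, so the counts are not those of direct users alone. Of the 23 genes of the list, 22 were tested. Of the tested genes, 6 (27.3%) were higher and 2 (9.09%) were lower, against 19.8% and 19.5% of all tested genes. The median log2 fold change of the list was 0.21. *PCYT1A*, the rate-limiting enzyme of phosphatidylcholine synthesis, rose from a TPM of 31.2 ± 1.75 to 55.4 ± 2.23 (log2 fold change 0.91, adjusted p = 6.52e-05 by edgeR). *ETNK2*, an ethanolamine kinase, rose from 2.60 ± 0.503 to 6.54 ± 2.42 (log2 fold change 2.23 from counts, 1.03 and 1.25 with limma on TPM), and *PTDSS1*, a phosphatidylserine synthase, from 52.4 ± 3.86 to 76.4 ± 5.09 (log2 fold change 0.58). *SELENOI* and *ETNK1* had log2 fold changes of -0.57 and -0.53. Both calls were lost without DKK1-SE+/+ replicate 1 or 2 or DKK1-SE-/- replicate 1 or 2, and that of *ETNK1* also without DKK1-SE+/+ replicate 3, with adjusted p of up to 0.111 and 0.159 in these edgeR fits. They were also lost with limma on TPM and both GC-content offsets (log2 fold change as near 0 as -0.18 and -0.03, adjusted p up to 0.245 and 0.903), and without DKK1-SE-/- replicate 3 that of *ETNK1* was -0.84. The TPM of *ETNK1* was 8.36 ± 0.885 and 8.13 ± 0.585, and the length implied by its count per TPM was 5833 and 3912 bases on average. By replicate that length was 5642, 5339 and 6519 bases in DKK1-SE+/+ cells and 2657, 3053 and 6028 bases in DKK1-SE-/- cells.

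Among relatives of the phospholipid phosphatases, 3 (27.3%) of 11 tested genes of 16 were higher and 1 (9.09%) was lower. Over all tested genes the shares were 19.8% and 19.5%. The median log2 fold change of the list was 0.33. *PLPPR2*, a member of the phosphatase family without known phosphatase activity, rose from a TPM of 11.3 ± 0.822 to 26.2 ± 4.03 (log2 fold change 1.33, adjusted p = 0.000145 by edgeR). *SGPP2*, a sphingosine 1-phosphate phosphatase, had a TPM of 0.147 ± 0.0451 and then 0.35, with a log2 fold change of 1.37, and *G6PC3*, a glucose 6-phosphatase, had a log2 fold change of 0.51. Their calls were lost without some samples: that of *SGPP2* without DKK1-SE+/+ replicate 2 or 3 (adjusted p up to 0.0652 by edgeR), and that of *G6PC3* without DKK1-SE+/+ replicate 1 or 2 or DKK1-SE-/- replicate 1 or 2 (up to 0.0986 by edgeR). Both were lost with limma on TPM, that of *SGPP2* also with DESeq2 and that of *G6PC3* with the GC-content offset and block together (log2 fold change down to 0.24 and 0.26, adjusted p up to 0.245 and 0.15 over all alternatives). The gene that was lower is *SGPP1*, given above.

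The list of lipin regulators and fatty acid oxidation had 3 (16.7%) higher and 5 (27.8%) lower of 18 tested genes of 20. Over all tested genes the shares were 19.8% and 19.5%. The median log2 fold change of the list was -0.05. *ACADM* and *ACADVL*, acyl-CoA dehydrogenases of mitochondrial fatty acid oxidation, fell from a TPM of 35.8 ± 3 to 18.3 ± 5.04 (log2 fold change -0.76) and from 264 ± 7.62 to 195 ± 13.4 (log2 fold change -0.44). *CPT1B*, a carnitine palmitoyltransferase, fell from 7.21 ± 1.12 to 3.91 ± 0.962 (log2 fold change -0.95, adjusted p = 0.00376 by edgeR). *PPARD*, *RPTOR* and *MTOR* had log2 fold changes of 0.49, 0.38 and 0.30. All 3 calls were lost without DKK1-SE+/+ replicate 1, DKK1-SE+/+ replicate 2 or DKK1-SE-/- replicate 1, and those of *RPTOR* and *MTOR* also without DKK1-SE+/+ replicate 3, with adjusted p of up to 0.124, 0.146 and 0.221 in these edgeR fits. All 3 were also lost with limma on TPM and with the GC-content offset and block together, and those of *RPTOR* and *MTOR* with the block or the offset alone, with log2 fold changes down to 0.28, 0.09 and 0.12 and adjusted p of up to 0.217, 0.514 and 0.419 over all alternatives. That of *MTOR* was lost in 11 of 15 alternatives, with library size alone and without a low-count filter among them. *CTDNEP1*, the phosphatase that dephosphorylates lipin 1, had a TPM of 178 ± 1.48 and 173 ± 10.4 and did not pass the test. *SREBF1*, a regulator outside the naming rule, was among the lower genes. It fell from 78.9 ± 3.39 to 44.4 ± 4.01 TPM (log2 fold change -0.6, adjusted p = 0.00913 by edgeR), and its call in the alternatives is not given here. The oxidation genes *CPT1A*, *CPT1C*, *CPT2*, *ACADS*, *HADHA* and *HADHB* did not pass the test in the main fit.

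The 5 nearest tested genes on each side of the 9 members are 90 genes, of which 13 were higher and 30 were lower in DKK1-SE-/- cells, with a median log2 fold change of -0.15. That is 14.4% and 33.3% of them, against 19.8% and 19.5% of all tested genes. Around *PLPP5* on chromosome 8, 8 of 10 were lower and none was higher, with a median of -1.22. The 2 others, *LETM2* and *RPS20P22*, did not pass edgeR's test after adjustment. *DDHD2* (log2 fold change -1.52), *BAG4* (-1.63), *LSM1* (-1.23), *ASH2L* (-1.21), *NSD3* (-1.44) and *FGFR1* (-1.40) met the DEG rule, and *PLPP5* at -0.98 was nearer 0 than each of them in the fits to counts. With limma on TPM *PLPP5* was farther from 0 than *DDHD2*, at -1.01 and -1.08 against -0.99 and -1.05. The 10 neighbours lie within 458.9 kb of *PLPP5*, and the 6 that met the DEG rule lie within 131.0 kb. *FGFR1* fell from a TPM of 128 ± 4.31 to 46.1 ± 2.42.

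Around *PLPP4*, 6 of 10 neighbours were lower and none was higher, with a median of -0.57. None of the 10 met the DEG rule. The nearest tested genes were *RPL21P16* at 102.0 kb (log2 fold change -0.03) and *WDR11* at 259.2 kb (-0.53, adjusted p = 0.00997 by edgeR). *WDR11* fell from a TPM of 20.1 ± 3.37 to 11.9 ± 3.09. Around *LIPG*, 1 of 10 was higher and 1 was lower, with a median of 0.16. *MYO5B*, at 223.6 kb, rose from a TPM of 1.18 ± 0.583 to 3.60 ± 0.49 (log2 fold change 1.68, adjusted p = 0.000413 by edgeR, and 1.11 with limma on log2(TPM + 1)), while the nearest, *RPL17* and *ACAA2*, had -0.26 and 0.10. The neighbour that was lower is *SMAD7* (-0.52), named after its values were seen, and its call was lost without DKK1-SE+/+ replicate 2 or 3 or DKK1-SE-/- replicate 2 (adjusted p up to 0.0573 by edgeR). The other neighbours that met the DEG rule were *CCNO* near *PLPP1* (-1.30), ENSG00000282393 (-1.40) and *C2CD4C* (1.44) near *PLPP2*, *TRIB2* near *LPIN1* (-1.83) and *EMILIN2* at *LPIN2* (-1.46). With limma on log2(TPM + 1) *C2CD4C* was at 0.84 and *TRIB2* at -0.99. The call of *CCNO* was lost without DKK1-SE+/+ replicate 3 (adjusted p = 0.0626 by edgeR) and with DESeq2, and its log2 fold change was -0.69 with limma on log2(TPM + 1).

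The remaining nearest neighbours were *MTREX* and *SLC38A9* at *PLPP1* (-0.70 and -0.07), *MIER2* after *PLPP2* (0.42), *USP24* and *PRKAA2* at *PLPP3* (-0.27 and -0.57), *GREB1* before *LPIN1* (0.60), *MYOM1* after *LPIN2* (-0.61), and *ZHX3* and *CHD6* at *LPIN3* (0.31 and 0.39). Of these, *MTREX*, *MIER2*, *PRKAA2* and *CHD6* passed the test, and *USP24* and *ZHX3* passed it only without 1 sample, DKK1-SE-/- replicate 3 for *USP24* (-0.49, adjusted p = 0.00153 by edgeR) and DKK1-SE-/- replicate 2 for *ZHX3* (0.41, adjusted p = 0.0473 by edgeR). The call of *PRKAA2* was lost without DKK1-SE+/+ replicate 2, that of *MIER2* without replicate 1 or 2 of either genotype, and that of *CHD6* without any 1 of the DKK1-SE+/+ replicates or DKK1-SE-/- replicate 3, with adjusted p of up to 0.0571, 0.161 and 0.137 by edgeR, and without the last of these samples the log2 fold change of *CHD6* was 0.25. Of the other alternatives, limma on log2(TPM + 1) ended the call of *MTREX* (adjusted p = 0.0506), whose log2 fold change was -0.35 with the GC-content offset, both limma fits and both GC-content offsets that of *PRKAA2* (log2 fold change as near 0 as -0.11, adjusted p up to 0.502), and the replicate block and both offsets that of *MIER2* (down to 0.05, up to 0.723). That of *CHD6* was also lost with library size alone, no low-count filter, the block and limma (adjusted p up to 0.438).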

How the data were processed

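RNA of 6 PANC-1 samples was prepared with a stranded mRNA kit and sequenced and analysed by a commercial service, on genome build hg38 per the submitters' processing notes. The aligner, the counting program and its strand setting are not given in the sources used here. The authors deposited an expected count per gene and sample, estimated and not always whole (32.3% of nonzero values were not), and TPM, normalized by the authors within each library. The deposited table also holds the authors' comparison (fold change, log2 fold change, p-values, calls) and annotation, of which only gene names, to find genes, and gene lengths, to scale implied transcript lengths, were used. Gene positions came from GENCODE version 44, which matched 62625 of 62703 identifiers.

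The members and gene lists were chosen with earlier results of these data known. Expected counts were rounded to whole numbers. Genes were filtered with filterByExpr (minimum count 10), normalized with TMM and tested with edgeR 4.0.16 (R 4.3.3) by the quasi-likelihood F test without covariates, with Benjamini-Hochberg adjustment over 15179 genes. The standard error is the absolute log2 fold change divided by the square root of F. The study's methods state the limit of the DEG rule as a fold change of 1.2, and it was applied to the log2 scale. The fit was tested on simulated data. Named genes were the 9 members, *DKK1*, in each list up to 3 genes per direction with the smallest p among those with an adjusted p under 0.05 and the gene with the highest mean TPM, the nearest tested gene on each side of a member, each neighbour that met the DEG rule, the 3 genes most correlated with *PLPP4* and with *LIPG* (mean TPM of at least 1 in either group), and markers. *GPAT4*, *AGPAT4*, *AGPAT2*, *S1PR2*, *LPAR1*, *S1PR5*, *SMAD7*, *CTDNEP1*, *ENPP2*, *LPL*, *LIPC*, *LETM2*, *RPS20P22*, *EMILIN3* and single markers besides the most abundant of each list and those at 0 were named outside this rule, after their values were seen. So were *LIPH*, *SREBF1*, *CPT1A*, *CPT1C*, *CPT2*, *ACADS*, *HADHA* and *HADHB*. Neighbours were ordered by gene midpoint. For *PLPP4*, a fold bound against 3 counts had been planned. It was replaced by the ratio of summed counts with an exact binomial interval (scipy 1.17.1), because the DKK1-SE-/- samples held 1 or 2 counts and were not at 0. Implied transcript lengths, promoter motifs and the share of all genes whose groups did not overlap were added after the values were seen. An implied length is the count divided by TPM, scaled in each library by its median over genes with a TPM of at least 1.

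The alternatives were DESeq2 1.42.0, RLE factors, no factors besides library size, a filter that kept any gene with a total count of 1, a block for replicate number, each sample left out, limma-trend (3.58.1) of log2(TPM + 1) or log2(TPM + 0.1) for genes with a mean TPM of at least 0.1, a GC-content offset in 40 bins with or without the block, the DEG rule, the same rule on the linear fold change (chosen after seeing the data), and, for shares, expected counts over the library total (CPM) in place of TPM. Same-numbered samples were checked for pairing, and the numbers did not pair them.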

Additional observations from a re-analysis of the deposited data

How the results depend on the processing

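Across genes, samples with the same number deviated from their group means with correlations of -0.12, -0.07 and -0.11, so the numbers did not pair samples. With the replicate block, 2404 genes were higher and 2577 were lower, 1 regulator or oxidation gene was higher, and 1 signalling gene and 0 relatives of the phosphatases were lower. The block moved no other of these counts by over 1.5 times. DESeq2 and the fit without a low-count filter each gave 0 lower relatives. With limma on log2(TPM + 1), 1172 genes were higher and 1994 were lower, so that 37.0% of calls were higher, against 50.5% in the main analysis. With log2(TPM + 0.1) they were 1238 and 2077 (37.3%). With either of these limma fits, 0 phosphatidate-forming enzymes, 2 signalling genes, 1 relative, 0 regulator or oxidation genes and 3 neighbours were higher, and 3 phosphatidate-forming enzymes, 0 enzymes using phosphatidate or diacylglycerol and 0 relatives were lower. With the GC-content offset, 2 phosphatidate-forming enzymes, 5 relatives and 1 regulator or oxidation gene were higher, and 0 enzymes using phosphatidate or diacylglycerol were lower. With the offset and the block, 1 phosphatidate-forming enzyme and 0 regulator or oxidation genes were higher, and 0 enzymes using phosphatidate or diacylglycerol were lower. Under the DEG rule on the log2 scale, 753 genes were higher and 561 were lower over all genes. In the lists it gave 0 higher and 1 lower phosphatidate-forming enzymes, 1 higher and 0 lower enzymes using phosphatidate or diacylglycerol, 0 lower signalling genes, 0 lower lipases and cofactors, 0 lower relatives, and 0 higher and 0 lower regulator or oxidation genes. With 1 sample left out, 2001 to 3703 genes were higher and 2055 to 3855 were lower, the lowest count of higher genes being without DKK1-SE+/+ replicate 1. In those fits 1 to 4 phosphatidate-forming enzymes were higher and 5 to 7 lower, 4 to 10 enzymes using phosphatidate or diacylglycerol were higher and 0 to 2 lower, 4 to 7 signalling genes were higher and 1 to 3 lower, 3 to 6 lipases and cofactors were higher and 2 to 5 lower, 1 to 3 relatives were higher and 0 to 2 lower, 0 to 3 regulator or oxidation genes were higher and 4 to 6 lower, and 8 to 15 neighbours were higher and 26 to 35 lower. The highest counts of higher enzymes using phosphatidate or diacylglycerol and of higher lipases came without DKK1-SE-/- replicate 3. Without DKK1-SE+/+ replicate 1 only 1 phosphatidate-forming enzyme was higher, without DKK1-SE+/+ replicate 2 only 1 relative was higher, without either of these only 8 neighbours were higher, and without DKK1-SE+/+ replicate 2 or 3 or DKK1-SE-/- replicate 2 only 2 lipases and cofactors were lower. *SLC38A9*, at -0.07, was called at 0.41 with the GC-content offset and the replicate block. The cause of these differences was not tested. Leaving out *SREBF1*, 67 genes were named with a call, 52 by the naming rule and the others markers or genes outside it. Of these 67 genes, 38 passed in all 15 alternatives, 29 of them by the rule. In 13 of these 38 the log2 fold change moved by over 1.5 times, as given beside 9 of them. The others were the markers *KDR* (-2.49, or -1.24 with limma) and *CD14* (1.76, or 0.68 with limma), and *KRT18* (0.67, or 0.40) and *CD68* (0.76, or 0.50) with the GC-content offset. The log2 fold change over the alternatives was -1.08 to -0.90 for *PLPP5*, 0.75 to 1.13 for *PLPP3*, 0.26 to 0.55 for *PLPP1*, 0.15 to 0.42 for *PLPP2*, -0.46 to -0.16 for *LPIN1*, -0.09 to 0.16 for *LPIN2*, 0.15 to 0.51 for *LPIN3* and 2.08 to 2.59 for *LIPG*. The fitted log2 fold change of *PLPP4* was -7.23 to -3.12 over the alternatives. With limma it was -3.12 on log2(TPM + 1) and -5.47 on log2(TPM + 0.1). Counts of 1 or 2 limit what can be said of *PLPP4* in DKK1-SE-/- cells to the interval given, which covers counting error only.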
